A study of Mus musculus with 13 samples.

Results

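The Neo1 locus was examined in open-chromatin data of mouse haematopoietic stem cells (HSCs). Its members are the accessible regions whose midpoint lies on chromosome 9 between 58650000 and 58950000 in the mm9 genome, 26 of the 115295 regions in the deposited table. The gene itself was taken to lie from about 58.72 to 58.88 Mb. These bounds place 16 regions within Neo1, 8 in the flank below it and 2 just above its upper end, and no region lies in the rest of the upper flank. The choice of regions used position alone. The locus was, however, proposed with earlier results of these libraries known, and which values led to it is not recorded in the sources used here. Its differences from MUL-HSC are therefore given as a description. No p-value is given over the locus, and calls at single regions serve to describe them only.

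Neo1 encodes neogenin-1, a cell-surface receptor of the immunoglobulin superfamily related to the netrin receptor DCC. It binds netrins and repulsive guidance molecules, and takes part in signalling by bone morphogenetic proteins. In mouse bone marrow, neogenin-1 is present on HSCs, where netrin-1 binding has been linked to quiescence and its surface level to a myeloid-biased output. An accessible region is a stretch of DNA that the Tn5 transposase can reach, as at active promoters and enhancers, and accessibility does not measure the gene's expression.

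All libraries came from C57BL/6 bone marrow. Single Vwf+ HSCs had been transplanted, and each recipient was assigned a class from its blood lineages over 16 weeks. Donor-derived HSCs (LSK Flt3- CD150+ CD48- CD45.2+ Gata1-) were then profiled by Omni-ATAC-seq at 500 cells per replicate. The groups were PLT-HSC from P-restricted recipients (n = 3), PEM-HSC from PEM-restricted recipients (n = 6) and MUL-HSC from multilineage recipients (n = 4). All groups thus share an origin in cells chosen for Vwf. Whether each replicate had its own recipient mouse is not in the labels, and any p-value therefore rests on a spread that may be technical. No annotation of the mm9 genome was used, so the cell type was not checked against marker loci, and other genes of the netrin and bone morphogenetic protein pathways were not examined.

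Library totals were 2378024 to 3307889 counts in PLT-HSC, 1276962 to 3851165 in PEM-HSC and 1307222 to 2831520 in MUL-HSC. Values are CPM (counts scaled to a common library total), scaled with TMM factors on the counts of the 59408 regions that passed a filter on low counts. Across all tested regions, 6 of the 13 libraries had a higher mean rank correlation with another group than with their own. Among them was MUL-HSC replicate 3, with a mean rho of 0.854 with PLT-HSC, 0.865 with PEM-HSC and 0.853 with MUL-HSC. At Neo1 this library did not stand apart: its summed gene signal was 33.6 CPM, and the other 3 MUL-HSC libraries had 31.4 to 38.5 CPM.

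Regions are named here by the distance of their midpoint from the upper bound of the gene, negative values lying below it. RefSeq places Neo1 on the minus strand, with Hcn4, a pacemaker channel gene, as the next protein-coding gene below and Adpgk, which encodes an ADP-dependent glucokinase, as the next above (GRCm38.p6). The upper end of the gene is thus its 5′ end, and transcription runs towards Hcn4. The RefSeq promoter of Neo1 is shown because the most accessible region of the window lies at this end. It covers chr9:59036392-59036691 of GRCm38.p6 on the minus strand, from 250 bases before to 50 after the start. Those coordinates are not mm9 positions, and the sequence was not placed on the regions. Capitals mark CpG dinucleotides.
Neo1 promoter: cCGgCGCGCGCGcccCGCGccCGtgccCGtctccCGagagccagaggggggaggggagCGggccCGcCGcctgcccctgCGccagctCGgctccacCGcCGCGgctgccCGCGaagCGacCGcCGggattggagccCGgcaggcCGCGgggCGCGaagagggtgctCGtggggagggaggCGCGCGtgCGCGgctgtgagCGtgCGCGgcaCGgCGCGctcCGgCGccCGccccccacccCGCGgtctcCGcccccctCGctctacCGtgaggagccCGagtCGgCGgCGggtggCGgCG
The sequence holds 54 CpGs and is 82.7% G and C, against medians of 7 CpGs and 52.7% over 32851 RefSeq promoters of the same length. The letters GGGCGG, bound by SP factors, occur 2 times on either strand, and 35.7% of all promoters hold them. The NRF1 motif occurs 1 time, and 4.60% of promoters hold it. The GATA letters AGATAA are not in this window on either strand, and 11.2% of promoters hold them. The ETS letters, CCGGAA, are not in it either, and 14.9% of promoters hold them. The same is true of TGTGGT, the RUNX letters, which 16.8% of promoters hold.

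Within Neo1, PLT-HSC and PEM-HSC were more accessible than MUL-HSC at the region at -90.1 kb. Mean CPM was also higher in both at -16.9 kb. The -16.9 kb region passed the filter through the groups where it is high, so it is given as values and not as support. The 5′ end region and 2 other tested regions inside the gene were not called. Of the 10 locus regions that passed the filter, 5 passed an adjusted p of 0.05 as higher in PLT-HSC than in MUL-HSC and 0 as lower (edgeR quasi-likelihood test). Of all tested regions, 1.13% did so as higher and 1.28% as lower. For PEM-HSC against MUL-HSC the counts were 3 higher and 0 lower of 10. Of all tested regions, 0.242% were called higher and 0.589% lower. Since the locus was proposed with such results known, nothing is read from these shares. The counts also depend on how regions entered the test, since the filter asks for 4.21 CPM on unnormalised totals in at least 3 libraries, whatever their group. Of the 10 regions, 8 had at least 1 MUL-HSC library at this minimum, and 3 of these were called in PLT-HSC and 2 in PEM-HSC. In the 5 with at least 3 such MUL-HSC libraries, 1 was called in either comparison, the region at -90.1 kb. The median log2 fold change over the 10 regions was 0.79 for PLT-HSC and 0.63 for PEM-HSC, over the 8 it was 0.17 and 0.34, and over all tested regions 0.01 for either. With 1 surrogate variable in the fit, 0 of the 10 were called in either comparison. Over all tested regions, calls of either direction then fell from 1431 to 4 for PLT-HSC and from 494 to 1 for PEM-HSC. The comparisons share the MUL-HSC libraries. In bulk libraries, a larger share of cells with an open region and wider opening in each cell cannot be told apart.

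**Figure D1:**
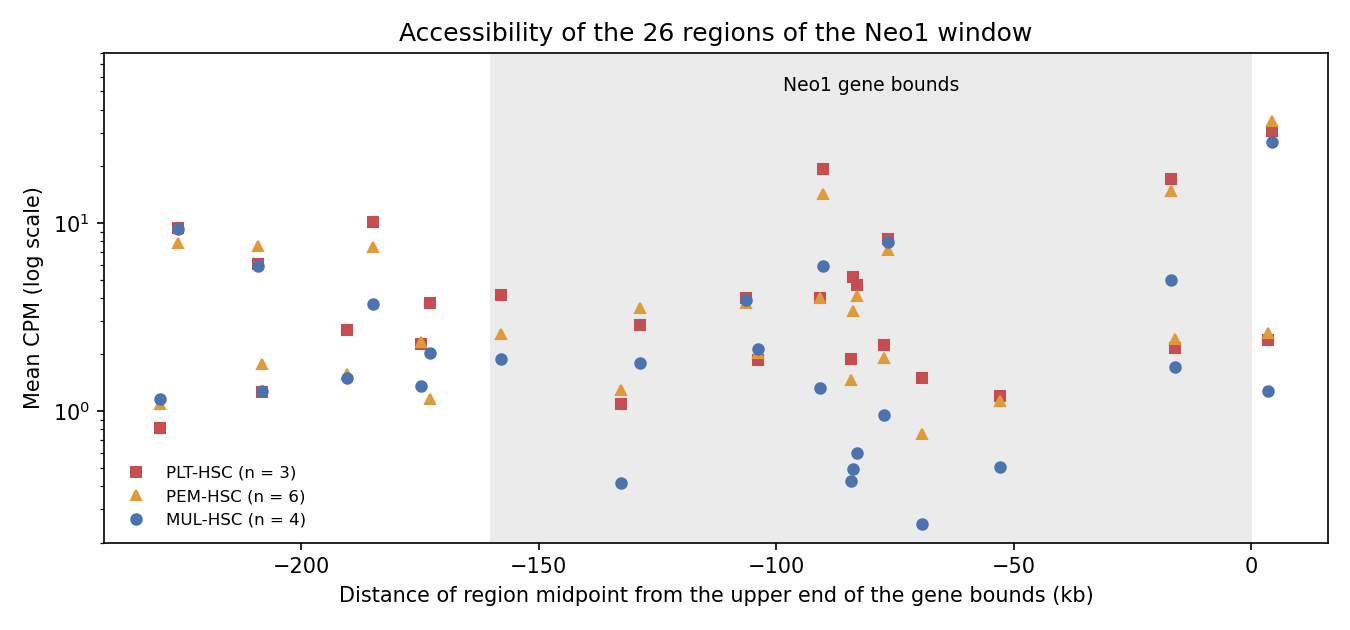
Mean CPM per group (log scale) of each of the 26 regions, against the distance in kb of its midpoint from the upper end of the gene bounds. PLT-HSC (squares, n = 3), PEM-HSC (triangles, n = 6) and MUL-HSC (circles, n = 4) are close at -76.4 kb and 4.35 kb. Both restricted groups lie apart from MUL-HSC at -90.1, -83.7, -83.1 and -16.9 kb, and at -185 kb in the lower flank. The shaded span is the Neo1 gene.

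The -90.1 kb region (chromosome 9, 58789541 to 58790288) was the most accessible region inside the gene bounds, at 12.9 CPM over all libraries and 17.2 CPM per kb of its width. It had 25.7, 15.4 and 17.1 CPM in PLT-HSC and 6.88 to 19.2 CPM in PEM-HSC, with a median of 14.9. MUL-HSC libraries had 5.78, 8.27, 5.02 and 4.58 CPM. All PLT-HSC libraries lay above all MUL-HSC libraries, and PEM-HSC overlapped MUL-HSC through PEM-HSC replicate 3 alone. The log2 fold change was 1.79 ± 0.30 (SE) for PLT-HSC, a 3.46-fold higher level, and 1.36 ± 0.28 for PEM-HSC, 2.57-fold higher, each against MUL-HSC. The PEM-HSC call was lost without MUL-HSC replicate 1 (log2 fold change 1.37), MUL-HSC replicate 4 (1.23) or PEM-HSC replicate 5 (1.24).

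The -16.9 kb region (58862663 to 58863575) was nearly as accessible, at 12.3 CPM over all libraries. PLT-HSC libraries had 15.3, 22.0 and 13.9 CPM, PEM-HSC libraries 9.90 to 18.3 CPM with a median of 15.9, and MUL-HSC libraries 6.42, 4.13, 5.52 and 3.81 CPM. Every library of both restricted groups lay above every MUL-HSC library. The log2 fold change was 1.76 ± 0.30 (SE) in PLT-HSC, 3.40-fold higher, and 1.58 ± 0.28 in PEM-HSC, 2.98-fold higher. Without MUL-HSC replicate 4 the PEM-HSC call was lost, at a log2 fold change of 1.42. With 1 surrogate variable the log2 fold change was 0.998 in PLT-HSC and 0.97 in PEM-HSC. The filter's minimum was reached in 9 libraries of the restricted groups and 2 of MUL-HSC, so the region entered the test through the groups where it is high. It is therefore given as values and not as support.

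A pair of weaker regions at -83.7 kb (58796045 to 58796469) and -83.1 kb (58796736 to 58797070) was nearly closed in MUL-HSC. At -83.7 kb, PLT-HSC libraries had 6.83, 5.61 and 2.97 CPM, PEM-HSC libraries 1.72 to 5.01 CPM with a median of 3.40, and MUL-HSC libraries 0.642, 0.827, 0.502 and 0 CPM. These values rest on 42 counts over the 3 PLT-HSC libraries, 48 over the 6 PEM-HSC libraries and 3 over the 4 MUL-HSC libraries. Scaled to depth, the ratio of summed counts to MUL-HSC was 12.5 for PLT-HSC (95% exact counting interval 4.01 to 63.2) and 8.50 for PEM-HSC (2.74 to 42.7). The 0 of MUL-HSC replicate 4 allows up to 1.14 CPM there. Such intervals and limits cover counting error only.

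At -83.1 kb, PLT-HSC libraries had 8.46, 1.87 and 3.63 CPM, PEM-HSC libraries 1.27 to 8.58 CPM with a median of 2.99, and MUL-HSC libraries 0.642, 0, 1.003 and 0.763 CPM. The summed counts were 41 in PLT-HSC, 54 in PEM-HSC and 5 in MUL-HSC. Scaled to depth, PLT-HSC stood at 7.34 times MUL-HSC (95% exact counting interval 2.90 to 23.8) and PEM-HSC at 5.74 times (2.31 to 18.4). Neither region reached the filter's minimum in any MUL-HSC library, whereas 3 libraries of the restricted groups reached it at each on unnormalised totals. On the CPM scale printed here, 5 restricted libraries are above 4.21 CPM at -83.7 kb and 3 at -83.1 kb. A region that enters the test in this way was selected through the groups where it is high, so both are given as values and not as support. The -83.7 kb region was called in both comparisons and the -83.1 kb region for PLT-HSC only. The call at -83.1 kb held under 10 of 19 settings. It was lost without MUL-HSC replicate 1, 2 or 4 or PLT-HSC replicate 1, at log2 fold changes of 2.72, 2.49, 2.83 and 1.99, against 2.74 with all libraries. The PLT-HSC call at -83.7 kb was lost without MUL-HSC replicate 4 (log2 fold change 2.90, against 3.46 with all libraries) or PLT-HSC replicate 1 (3.16). That of PEM-HSC (2.90 with all libraries) was lost without any of MUL-HSC replicates 1, 2 and 4, PEM-HSC replicates 1, 2 and 5 or PLT-HSC replicate 1, at 2.33 to 3.19.

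**Figure D2:**
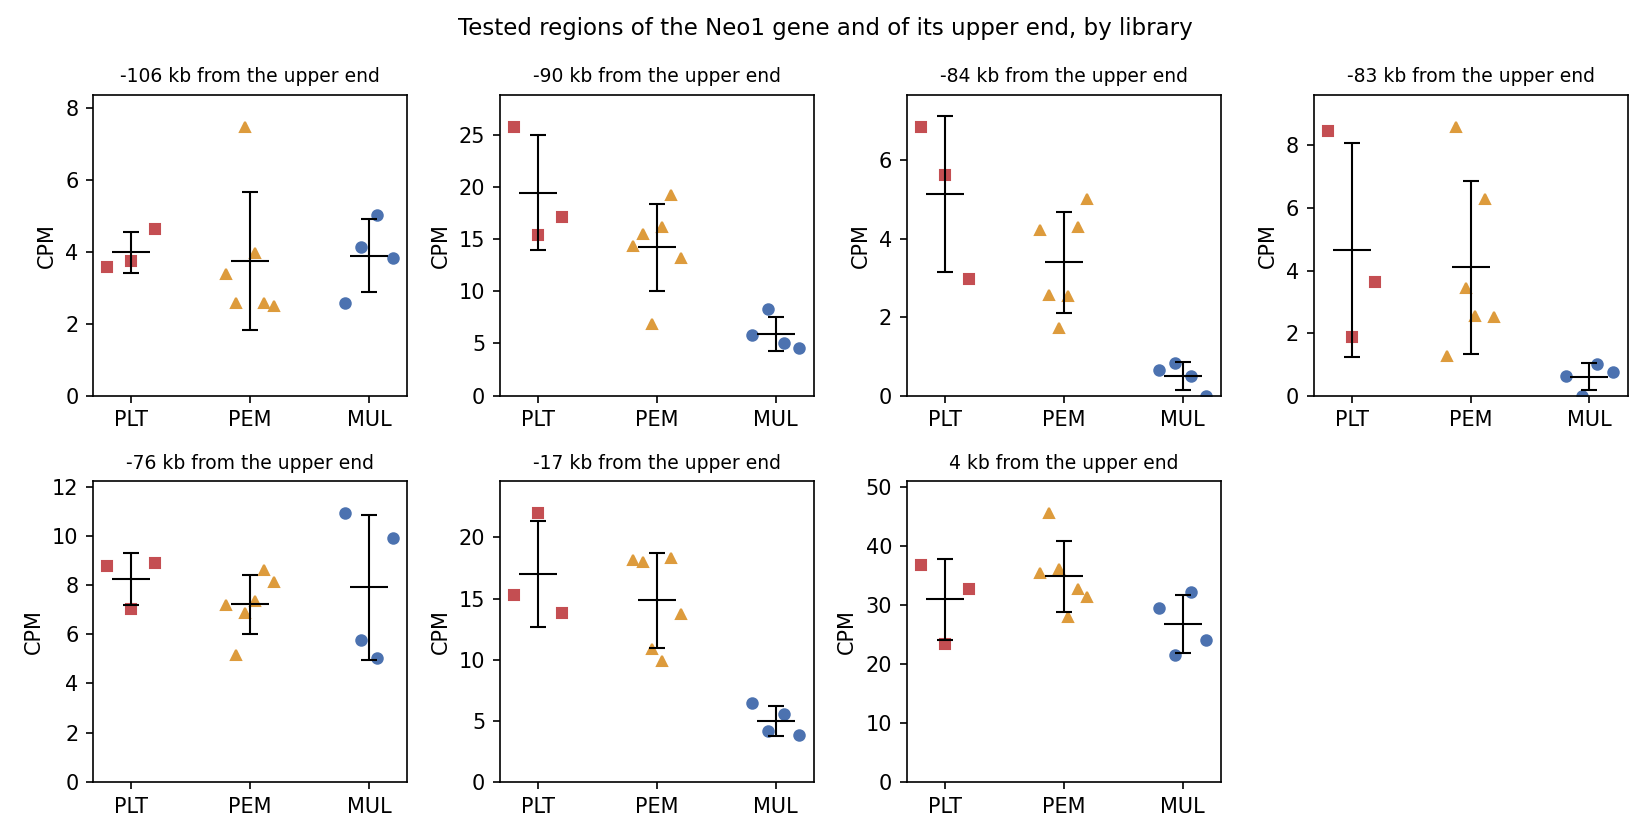
CPM of each library at the 7 tested regions of the Neo1 gene and its upper end, with the mean and SD of each group (PLT-HSC, n = 3; PEM-HSC, n = 6; MUL-HSC, n = 4). At -16.9 kb all PLT-HSC and PEM-HSC libraries sit above the MUL-HSC libraries, which reach 6.42 CPM, whereas at -76.4 kb the groups overlap.

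The other 2 tested regions of the gene did not pass the threshold in either comparison. The -76.4 kb region (58803249 to 58803864), the next tested one above the pair, had 8.79, 7.01 and 8.90 CPM in PLT-HSC, 5.15 to 8.59 CPM in PEM-HSC with a median of 7.27, and 10.9, 5.79, 5.02 and 9.91 CPM in MUL-HSC. Its log2 fold change was 0.05 ± 0.30 (SE) in PLT-HSC and -0.12 ± 0.27 in PEM-HSC, and all groups overlapped. The -106 kb region (58773240 to 58773964) gave 0.03 ± 0.45 and -0.07 ± 0.40. These regions were chosen for description after their values were seen.

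At the 5′ end, the 4.35 kb region (58883625 to 58885079) was the most accessible of the window, at 31.5 CPM over all libraries and 21.6 CPM per kb, above 92.2% of all regions in the table by mean CPM. PLT-HSC libraries had 36.8, 23.4 and 32.6 CPM, PEM-HSC libraries 28.0 to 45.5 CPM with a median of 34.1, and MUL-HSC libraries 29.5, 21.5, 32.1 and 24.0 CPM. The groups overlapped, with log2 fold changes of 0.22 ± 0.18 (SE) in PLT-HSC and 0.34 ± 0.16 in PEM-HSC, neither past the threshold. This region carried 262 counts over the PLT-HSC libraries, 463 over PEM-HSC and 199 over MUL-HSC, so its standard error is the smallest of the 10 tested regions. Beside it, the 3.46 kb region (58883329 to 58883590) held 21 counts in PLT-HSC, 35 in PEM-HSC and 9 in MUL-HSC and was not tested.

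**Figure D3:**
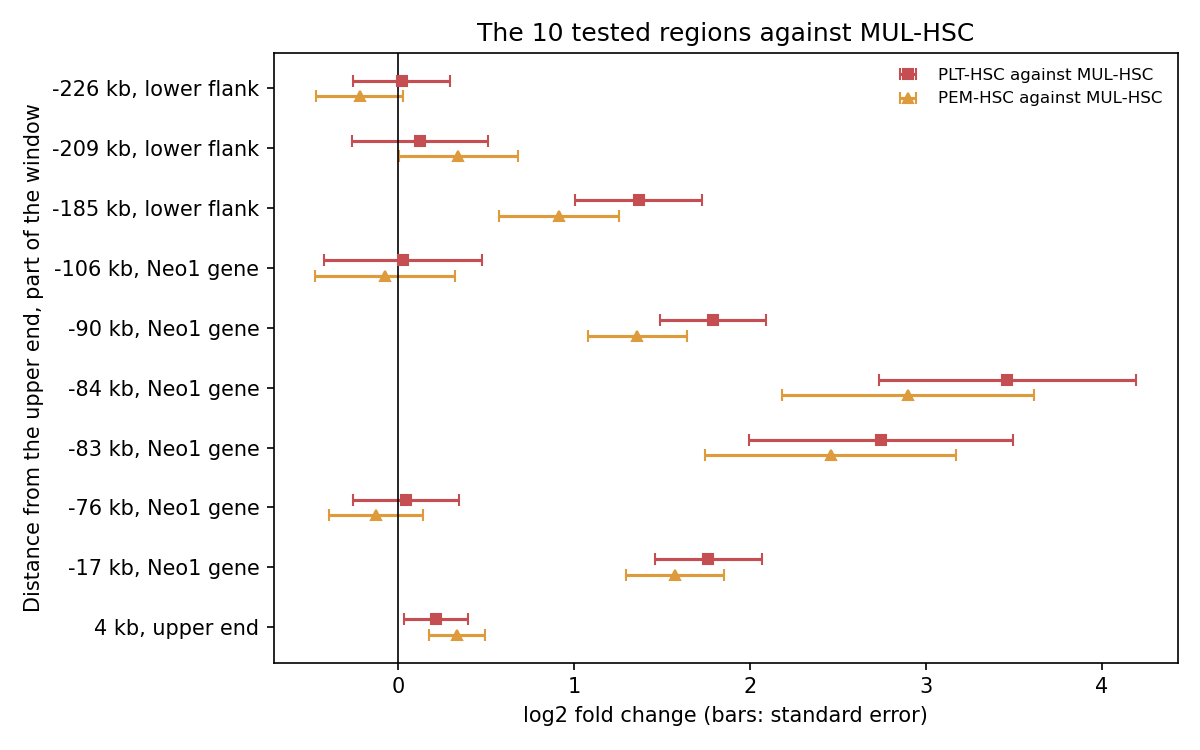
Log2 fold change with its standard error for the 10 tested regions, PLT-HSC (squares) and PEM-HSC (triangles) each against MUL-HSC. Regions run down the page from the lower flank to the upper end. Values lie at 1.36 or more at -90.1, -83.7, -83.1 and -16.9 kb. At -185 kb, in the lower flank, they are 1.37 for PLT-HSC and 0.92 for PEM-HSC. They lie between -0.22 and 0.34 at -226, -209, -106, -76.4 and 4.35 kb.

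In the lower flank, the -185 kb region (58694738 to 58695610) was the only one of 3 tested that was called, in PLT-HSC. It had 8.79, 10.3 and 11.2 CPM in PLT-HSC, 4.53 to 11.5 CPM in PEM-HSC with a median of 6.31, and 3.85, 2.48, 3.51 and 4.96 CPM in MUL-HSC. PLT-HSC lay wholly above MUL-HSC while PEM-HSC overlapped it. The log2 fold change was 1.37 ± 0.36 (SE) in PLT-HSC and 0.92 ± 0.34 in PEM-HSC. The PLT-HSC call was lost when any single PLT-HSC or MUL-HSC library was left out, at log2 fold changes of 1.25 to 1.56. This region, too, entered the test through the groups where it is high, with 8 restricted libraries and 1 MUL-HSC library at the filter's minimum. It is likewise given as values and not as support. The -226 kb region (58653588 to 58654317), the most accessible of this flank, had 9.42 ± 1.30 CPM in PLT-HSC, 7.82 ± 2.02 in PEM-HSC and 9.33 ± 0.969 in MUL-HSC (SD, n = 3, 6 and 4). The -209 kb region (58670200 to 58671388) had 6.08 ± 3.79, 7.58 ± 1.88 and 5.90 ± 2.01 CPM in the same groups.

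The 16 regions that did not pass the filter held 23 to 102 counts each over all 13 libraries. Over all 16 regions within the gene, tested or not, the mean CPM was higher in PLT-HSC than in MUL-HSC at 15 and higher in PEM-HSC than in MUL-HSC at 13. Over all 115295 regions the shares were 50.1% and 49.6%. In the lower flank the counts were 6 and 5 of 8. Neighbours of the called regions belong to this set. The -90.8 kb region (58789059 to 58789349) had 3.98 ± 0.28 CPM in PLT-HSC, 4.00 ± 0.87 in PEM-HSC and 1.33 ± 1.80 in MUL-HSC (SD, n = 3, 6 and 4). At -84.2 kb (58795662 to 58795979), 16 counts in PLT-HSC and 21 in PEM-HSC stood against 3 in MUL-HSC, ratios of 4.78 (95% exact counting interval 1.37 to 25.6) and 3.72 (1.11 to 19.5). Beside the -16.9 kb region, that at -16.0 kb (58863902 to 58864162) differed little. It had 2.17 ± 1.08, 2.41 ± 1.003 and 1.72 ± 0.54 CPM in PLT-HSC, PEM-HSC and MUL-HSC. Its counting ratios to MUL-HSC were 1.31 (0.61 to 2.88) and 1.43 (0.74 to 2.95). At -104 kb (58775983 to 58776187) the means were 1.87, 2.04 and 2.15 CPM, highest in MUL-HSC. The -158 kb region (58721780 to 58722269), nearest the lower bound of the gene, had 4.12 ± 1.45, 2.56 ± 0.92 and 1.89 ± 0.75 CPM in PLT-HSC, PEM-HSC and MUL-HSC. Every PLT-HSC library lay above every MUL-HSC library at 5 of the 10 tested regions, against 6.67% of all tested regions. For PEM-HSC the number was 3 of 10, against 1.51%. Both numbers include the -83.7 and -83.1 kb regions, and without that pair they were 3 of 8 for PLT-HSC and 1 of 8 for PEM-HSC. These 8 still include the -16.9 and -185 kb regions, which entered the test through the groups where they are high. Over the 5 regions with at least 3 MUL-HSC libraries at the filter's minimum, the numbers were 1 for PLT-HSC and 0 for PEM-HSC.

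Summed over the 16 gene regions, PLT-HSC libraries had 96.3, 73.3 and 74.5 CPM, PEM-HSC libraries 56.2 to 81.9 CPM with a median of 66.1, and MUL-HSC libraries 37.2, 31.4, 33.6 and 38.5 CPM. Both restricted groups lay wholly above MUL-HSC and overlapped each other. The ratio of means was 2.31 for PLT-HSC against MUL-HSC (log2 ratio 1.21) and 1.95 for PEM-HSC against MUL-HSC (0.96). Taken apart, the 4 called gene regions summed to 46.2 ± 9.43, 36.5 ± 9.17 and 12.0 ± 1.98 CPM in PLT-HSC, PEM-HSC and MUL-HSC (SD, n = 3, 6 and 4). The other 12 summed to 35.2 ± 5.97, 32.1 ± 1.94 and 23.2 ± 4.69 CPM. The 4 were picked on this difference, so their sum is a description.

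The flanks were set beside the gene as a control. The 2 regions at the upper end lie beyond a rounded gene bound, and since no mm9 annotation was used they may belong to the promoter of Neo1 itself. The 8 regions of the lower flank summed to 36.4 ± 4.97 CPM in PLT-HSC, 30.8 ± 4.60 in PEM-HSC and 26.3 ± 3.81 in MUL-HSC (SD, n = 3, 6 and 4). Those are 1.38 times MUL-HSC for PLT-HSC and 1.17 times for PEM-HSC, and they include the called -185 kb region. The 2 regions at the upper end summed to 33.3 ± 8.21, 37.4 ± 5.73 and 28.1 ± 4.39 CPM in the same groups. Over the 10 regions together, the log2 ratio to MUL-HSC was 0.36 for PLT-HSC and 0.33 for PEM-HSC. In the 182 regions within 1 Mb on each side of the window, the sums were level, at 1853 ± 21.6, 1864 ± 61.8 and 1857 ± 68.6 CPM. Of 105 of these that were tested, 0 were called higher than in MUL-HSC in either comparison (edgeR quasi-likelihood test). In PLT-HSC 4 were called lower, and in PEM-HSC 0. Over all tested regions, 1.13% were called higher and 1.28% lower in PLT-HSC, and 0.242% higher and 0.589% lower in PEM-HSC.

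**Figure D4:**
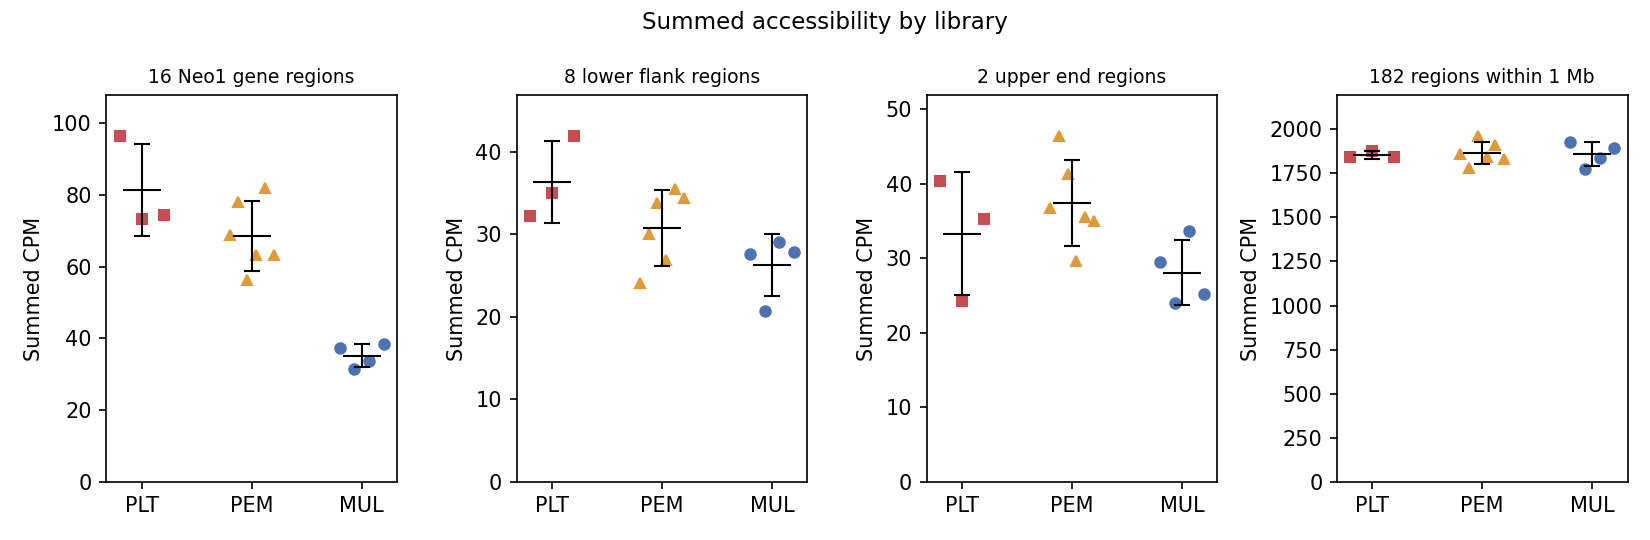
Summed CPM of each library over the 16 gene regions, the 8 lower flank regions, the 2 upper end regions and the 182 regions within 1 Mb of the window, with group mean and SD (PLT-HSC, n = 3; PEM-HSC, n = 6; MUL-HSC, n = 4). Over the gene the lowest restricted library, at 56.2 CPM, stands above the highest MUL-HSC library, at 38.5 CPM. In the lower flank PLT-HSC alone lies wholly above MUL-HSC, and in the other sets all groups overlap.

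Depth differed between libraries, and 5 of them, in PEM-HSC (replicates 2, 3 and 6) and in MUL-HSC (replicates 1 and 2), held under 2000000 counts. Without these libraries the log2 ratio of the gene sum was 1.17 for PLT-HSC and 0.99 for PEM-HSC, each against MUL-HSC. With every library thinned to the smallest total it was 1.22 and 0.93.

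PLT-HSC and PEM-HSC did not differ past the threshold at any tested region of the locus. Of the 10 tested regions, 0 passed in either direction by the edgeR quasi-likelihood test or by DESeq2, and 0 had an unadjusted p under 0.05. Of all tested regions, 0.00168% passed the adjusted threshold in the edgeR test, and 4.61% had an unadjusted p under 0.05 in it. The largest log2 fold change of PLT-HSC against PEM-HSC was 0.57 ± 0.46 (SE), at -83.7 kb, followed by 0.45 ± 0.29 at -185 kb and 0.43 ± 0.23 at -90.1 kb. At -16.9 kb it was 0.19 ± 0.23, and at the 5′ end -0.12 ± 0.16. The gene sum differed by a log2 ratio of 0.25. A missed threshold does not show equal levels: the standard errors at the 10 regions were 0.16 to 0.50.

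The PEM-HSC libraries spanned a wider range at the called gene regions than at the others. PEM-HSC replicate 3 had the lowest sum over the 4 called gene regions, 22.9 CPM, and PEM-HSC replicate 5 the highest, 48.1 CPM, while the other 12 gene regions spanned only 28.8 to 33.8 CPM. The regions of the genome most like the Neo1 gene sum were found by Pearson correlation of log2 CPM over the 13 libraries. The 5 highest lay on chromosome 6 (76337178 to 76338211), chromosome 13 (8865963 to 8866275), chromosome 9 (61162979 to 61164121), chromosome 12 (111846947 to 111847571) and chromosome 7 (4449771 to 4450267). Their r was 0.938 to 0.948, Spearman's rho 0.868 to 0.934, and r within the 6 PEM-HSC libraries 0.888 to 0.950. These are the extremes of all tested regions, and the libraries share group and depth, so the values describe likeness only. The chromosome 6 region had mean levels of 43.5 CPM in PLT-HSC, 28.8 in PEM-HSC and 0.953 in MUL-HSC. In the same groups, the chromosome 13 region had 6.05, 3.83 and 0.588 CPM. Means were 22.8, 19.6 and 6.85 CPM for chromosome 9, 26.6, 20.7 and 13.2 for chromosome 12, and 26.1, 15.8 and 7.85 for chromosome 7.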

How the data were processed

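Omni-ATAC-seq was deposited by the authors as raw counts of reads or fragments per accessible region. The genome build was mm9 and the tools were MACS2, Picard, SAMtools, Bowtie2, FastQC and Trim Galore, per the submitters' processing notes. Versions, the counting tool, duplicate handling, any transposase shift and the base of region starts (0 or 1) were not given in the sources used here.

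Counts were tested with edgeR 4.0.16 in R 4.3.3 (filterByExpr by group, TMM, robust quasi-likelihood fit of all 13 libraries, two-sided), with Benjamini-Hochberg adjustment over all 59408 tested regions, which held 91.4% of counts. Log2 CPM used a prior count of 2. Every one of 24 same-group library pairs differed beyond counting noise (chi-square per degree of freedom 1.44 to 2.23). Sums over regions and ratios carry no test. DESeq2 1.42.0, limma 3.58.1 (loess) and sva 3.50.0 served alternatives.

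The members and tests were chosen with earlier results of these data known. Named are the called regions, the most accessible region of each part, those nearest the gene's bounds and the 5 largest changes against MUL-HSC. Others were added, some after their values were seen, and not every member is described singly.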

Additional observations from a re-analysis of the deposited data

Results flagged for a closer look

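Single libraries stood far from the rest of their group in 4 of 56 sets of group values checked, and chance marks about 1 in 20. At -173 kb (58706924 to 58707411), PEM-HSC replicate 6 had 4.38 CPM and the other PEM-HSC libraries 0 to 1.41. At -106 kb (58773240 to 58773964), PEM-HSC replicate 3 had 7.45 CPM and the others 2.50 to 3.96. MUL-HSC replicate 3 held the only counts of its group at -69.4 kb (58810509 to 58810729), 1.003 CPM, and at -53.0 kb (58826861 to 58827155), 2.01 CPM. A library with the sole counts of its group is always marked in this way.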

How the results depend on the processing

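The 5 regions called for PLT-HSC against MUL-HSC became 3 with DESeq2, with the compared groups alone, with the replicate number as a block and without libraries under 2000000 counts. They became 2 at a mean of at least 20 counts, where 4 locus regions were tested, and after thinning, where 7 were. With 1 surrogate variable, of which group membership accounted for 65.7% of the variance, the count was 0, and the PLT-HSC log2 fold changes were 1.57 at -90.1 kb, 2.76 at -83.7 kb, 1.26 at -83.1 kb, 0.998 at -16.9 kb and 0.64 at -185 kb. Leaving out each library in turn gave 2 to 5, the 2 without MUL-HSC replicate 4 or PLT-HSC replicate 1. Over all regions tested, the calls of this comparison were 1431 in the main fit, 1114 with DESeq2 and 1492 with the compared groups alone. They were 682 with the block and 275 without libraries under 2000000 counts. The stricter mean gave 577, thinning 636 and 1 surrogate variable 4. Without MUL-HSC replicate 4 or PLT-HSC replicate 1 they were 485 and 350. For PEM-HSC against MUL-HSC, the 3 calls became 1 with the block or thinning and 0 with 1 surrogate variable or without the shallow libraries. Leaving out each library gave 0 to 3, the 0 without MUL-HSC replicate 4. Over all regions tested, the 494 calls of this comparison became 108 with the block, 357 after thinning and 1 with 1 surrogate variable. Without the shallow libraries they were 13, and without MUL-HSC replicate 4 they were 61. For PLT-HSC against PEM-HSC every setting gave 0. Chosen after seeing the data, a count over regions with at least 1 MUL-HSC library at the filter's minimum gave 3 in PLT-HSC and 2 in PEM-HSC, and over those with at least 3 such libraries 1 in each.

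The replicate numbers did not pair the libraries: same-numbered libraries correlated at -0.136 to 0.0992 in their deviations from the group means over 10 pairs, and 0 of 6, 1 of 8 and 3 of 6 libraries correlated best with their own number.

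The log2 ratio of the gene sum moved to 0.86 (PLT-HSC) and 0.75 (PEM-HSC) against MUL-HSC with bounds widened by 10 kb, which brings in the upper end, and to 1.78 and 1.47 as the median of the 6 tested regions. Without the -83.7 and -83.1 kb pair, which no MUL-HSC library carried past the filter, that median was 0.91 and 0.64, below the sum. The log2 ratio of the gene sum ranged over 1.07 to 1.28 (PLT-HSC) and 0.91 to 1.01 (PEM-HSC) with each library left out. The flank log2 ratio of 0.36 for PLT-HSC became -0.0033 over 1 Mb on each side, and that of PEM-HSC became 0.0053, or 0.12 without the shallow libraries. For PLT-HSC against PEM-HSC the widened bounds gave the flank 0.24.

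Small differences changed sign. At -226 kb, PLT-HSC against MUL-HSC was -0.059 after thinning and -0.057 to 0.12 with each library left out. At 4.35 kb it was -0.022 with 1 surrogate variable. For PLT-HSC against PEM-HSC, leaving out each library gave -0.48 to 0.62 at -83.1 kb, -0.018 to 0.31 at -16.9 kb and -0.27 to 0.028 at 4.35 kb. The cause of these changes was not tested. Counts of 3 and 5 in MUL-HSC limit the -83.7 and -83.1 kb regions.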

Other observations

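The -173 kb region (58706924 to 58707411), in the lower flank and below the filter, was chosen after its values were seen, for its pattern of zeros. All 3 PLT-HSC libraries held it, with 9, 10 and 11 counts. PEM-HSC replicates 1, 2 and 5 had 0 counts, replicates 3, 4 and 6 had 2, 5 and 7. MUL-HSC replicates 1 and 2 had 0 counts and replicates 3 and 4 had 11 and 7. The 0 of PEM-HSC replicate 5, one of the deepest libraries, allows up to 0.859 CPM, and the PLT-HSC libraries had 2.93, 4.67 and 3.63 CPM. The zeros of the other 4 libraries allow up to 1.27 and 2.58 CPM in PEM-HSC replicates 1 and 2, and 1.93 and 2.48 CPM in MUL-HSC replicates 1 and 2.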
